A study of Homo sapiens and Mus musculus with 24 samples.

Results

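Of 58381 human genes listed in the count tables, 128 carry a GENCODE symbol that ends in -IT and a digit, and 46 of these were taken as members. They were selected on a measured value, a mean of at least 0.5 CPM (a gene's count scaled to a common library total) in the nonirradiated samples of HepG2 or of HEK293. HepG2 is a human liver carcinoma line and HEK293 a human embryonic kidney line, as the labels name it (the study's methods name HEK293T for culture). In HepG2 41 members reached the limit and in HEK293 20, with 15 in both lines, 26 in HepG2 and not HEK293, and 5 in HEK293 and not HepG2. The limit fell between CACNA1C-IT3, left out at 0.488 CPM in HEK293, and DAPK1-IT1, included at 0.502 CPM in HepG2.

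The -IT suffix is the nomenclature for a transcript that lies in an intron of another gene, on the same strand, and the symbol of that host gene stands before the suffix. Such transcripts are annotated as long noncoding RNAs (lncRNAs). Reads from an unspliced precursor of the host look the same as unspliced reads from a separate intronic gene, since both come from the same strand of the same intron. Counts per gene do not set apart reads over splice junctions of the intronic gene itself. Introns are normally removed and degraded in the nucleus, whereas most spliced host mRNA leaves for the cytoplasm. In UPA-seq, cells are irradiated with short-wave UV, which joins RNA covalently to the proteins in contact with it, and RNA is then taken from the aqueous phase after phenol extraction. RNA joined to protein is depleted from that phase, and a crosslink left on an RNA can also block reverse transcription. A lower share of reads after UV can come from either step, and these counts cannot tell them apart.

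For each line the study sequenced 3 nonirradiated and 3 UV samples, 12 in all, after removal of ribosomal RNA. The 6 samples of a line differ by the labels in UV alone, all were extracted with the phenol reagent TRIzol, and the study describes its replicates as biological triplicates. The labels do not say whether the 3 came from separate cultures, so p-values measure the spread between these samples. HepG2 samples held 36573473 to 53511592 counts and HEK293 samples 9444707 to 11188033. The 8 HepG2 markers examined (ALB, AFP, APOA1, APOB, TF, SERPINA1, FGB, HNF4A) were higher in every HepG2 sample than in any HEK293 sample, with summed levels of 31169 to 56289 CPM against 0.314 to 3.78 CPM. Of 6 HEK293 markers 4 (PAX2, LHX1, NEFL, NEFM) were higher in every HEK293 sample, ENO2 overlapped between the lines, GAL was at 0 in some HEK293 samples, and the summed level was 197 to 619 CPM against 21.4 to 67.9 CPM in HepG2. Replicate 1 of both HEK293 groups stood apart from replicates 2 and 3, so HEK293 results are also given without it. Levels were scaled by edgeR's TMM factors, which were 1.54 to 1.59 in nonirradiated and 0.619 to 0.655 in UV samples of HepG2, and 1.25 to 1.37 and 0.698 to 0.809 in HEK293. All changes are therefore relative to the bulk of genes.

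On hg38, all 46 members lay within the span of their host, and 45 lay on its strand. WARS2-IT1 lay on the opposite strand to WARS2, a mitochondrial tryptophanyl-tRNA synthetase. In 43 cases the whole member fell inside 1 host intron, whose length ranged from 1783 bases around THBS1-IT1 to 236163 bases around BACH1-IT1 and BACH1-IT2. MAGI1-IT1 shared 212 exon bases and SND1-IT1 480 exon bases with the host, and NARF-IT1 was not inside a single host intron although it shared no exon base. FOXP1-IT1, BACH1-IT2 and BACE2-IT1 shared 535, 68 and 382 bases with genes on the opposite strand, and since the counting commands name no option for strand, reads there cannot be assigned to either gene. Members had a median exon length of 710 bases (208 to 5926), 30 had 2 exons and 8 had a single exon. Their median content of T, the base that UV joins to protein most readily when it stands as U in RNA, was 28.6%, against 26.5% in the hosts and 28.4% in other sense intronic lncRNAs tested in either line, and it exceeded that of the host in 32 of 46 members.

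The annotated 3′ ends of 6 members are printed here as examples, chosen with their changes known. HS1BP3-IT1, GABPB1-IT1 and AGAP1-IT1 did not fall in HepG2, and ANKRD10-IT1, N4BP2L2-IT2 and THRB-IT1 did. Each line gives 40 bases before the annotated end in lower case and the 20 genomic bases after it in capitals, with a poly(A) signal (AATAAA or ATTAAA) before the end in capitals as well. The sequences come from the hg38 reference at the positions in the count tables. They are HS1BP3-IT1 at chr2:20590755-20590814 (minus strand), GABPB1-IT1 at chr15:50348916-50348975 (minus), AGAP1-IT1 at chr2:235507527-235507586 (plus), ANKRD10-IT1 at chr13:110894619-110894678 (minus), N4BP2L2-IT2 at chr13:32504486-32504545 (minus) and THRB-IT1 at chr3:24455116-24455175 (minus).
HS1BP3-IT1: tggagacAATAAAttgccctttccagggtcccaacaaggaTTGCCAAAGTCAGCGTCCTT
GABPB1-IT1: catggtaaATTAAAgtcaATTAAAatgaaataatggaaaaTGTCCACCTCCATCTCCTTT
AGAP1-IT1: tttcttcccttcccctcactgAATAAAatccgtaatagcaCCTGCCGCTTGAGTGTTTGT
ANKRD10-IT1: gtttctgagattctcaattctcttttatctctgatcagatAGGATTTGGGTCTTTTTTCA
N4BP2L2-IT2: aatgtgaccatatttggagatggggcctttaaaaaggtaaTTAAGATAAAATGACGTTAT
THRB-IT1: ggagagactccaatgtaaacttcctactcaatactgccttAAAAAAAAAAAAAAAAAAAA

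Over all 46 members, 16 held a poly(A) signal in the last 40 bases (34.8%), against 71.1% of the hosts, 50.1% of other sense intronic lncRNAs and 46.6% of other lncRNAs tested in either line. In 9 members (19.6%) the annotated end was followed by at least 12 A among 20 genomic bases, against 8.87% of other sense intronic lncRNAs, 5.26% of other lncRNAs and 4.44% of hosts. THRB-IT1 was followed by 20 A of 20. A match to these letters is a description of the annotation and not of a processing site. The printed examples do not stand for all members, since 10 of 14 members with a signal fell in HepG2. WARS2-IT1, MAGI1-IT1 and CDC42-IT1, which are not printed, are among those 10.

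The first question was how far the reads of the -IT transcripts fell with UV. Summed over all 128 -IT genes, whatever their level, HepG2 nonirradiated samples held 6418, 7309 and 5853 counts and UV samples 1648, 1231 and 1367. Scaled to TMM-normalised CPM, the sum was 96.2 ± 15.4 (SD, n = 3) without UV and 47.5 ± 3.12 (SD, n = 3) with UV. By total counts 50.4% of the nonirradiated level was left. GABPB1-IT1 and HS1BP3-IT1 alone made up most of what was left. Without these 2 genes, singled out after their values were seen, the sum went from 68.8 ± 17.2 to 5.73 ± 1.11 (SD, n = 3 each), or 8.64% of the nonirradiated level with a 95% interval of 7.90 to 9.44% for counting error alone (exact Clopper-Pearson, as are all such intervals here). In HEK293 the sum over all 128 genes went from 55.6 ± 0.86 to 13.9 ± 2.12 (SD, n = 3 each). This left 24.9% of the nonirradiated level (interval 22.1 to 27.9%). Over the same 126 genes the HEK293 sum was 593, 601 and 663 counts without UV and 53, 53 and 48 with UV. That left 12.7% of the nonirradiated level (interval 10.7 to 15.02%). No UV sample reached any nonirradiated sample in these sums, and the exact two-sided permutation test gave p = 0.1, the smallest that 3 samples against 3 allow.

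Because members were selected on their nonirradiated level, that choice favours genes that are lower after UV. The genes in the sums below were under the limit in the samples summed, so their nonirradiated levels there were also part of the choice, but held low rather than high. The 82 -IT genes under the limit in both lines held 398, 318 and 291 counts in the nonirradiated HepG2 samples and 17, 10 and 16 in the UV samples, and in HEK293 71, 78 and 81 against 15, 17 and 8. The 26 members that passed in HepG2 only held 55, 49 and 50 counts in the nonirradiated HEK293 samples and 6, 7 and 6 in the UV samples, which is 19.0% of the nonirradiated level (interval 11.1 to 30.6%). The groups did not overlap in either sum. The 5 members that passed in HEK293 only held 16, 29 and 15 counts in nonirradiated HepG2 samples, nearly all from KDM5C-IT1, and 1, 0 and 0 after UV. Had the same limit been put on the UV samples, 2 of 128 -IT genes would have reached it in HepG2, HS1BP3-IT1 and GABPB1-IT1, and 1 in HEK293, GABPB1-IT1. The limit is on CPM by library size alone, by which the median log2 change of all genes was −1.38 in HepG2 and −0.84 in HEK293. It is therefore stricter on UV samples. AGAP1-IT1 missed it in HepG2 although its UV mean was 0.782 TMM-normalised CPM. The share of all genes that would reach it in UV samples is not given here.

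In HepG2, 37 of the 41 members tested fell, 2 rose and 2 did not pass the test (edgeR quasi-likelihood test, Benjamini-Hochberg adjusted p under 0.05 over 20117 genes, all held to the same limit). Of all genes tested 40.7% were called lower and 38.1% higher. With the limit on the mean of all 6 samples instead, 23 members were tested and 20 fell, where 40.2% of genes were called lower. The members' median log2 fold change (UV over nonirradiated) was −3.56, or −3.55 with the 3 members at 0 in every UV sample set to their bound, against −0.08 over all genes. The members that fell kept 0 to 33.2% of their nonirradiated level by total counts, with a median of 7.34%, and 25 of the 37 kept less than 10%.

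**Figure D1:**
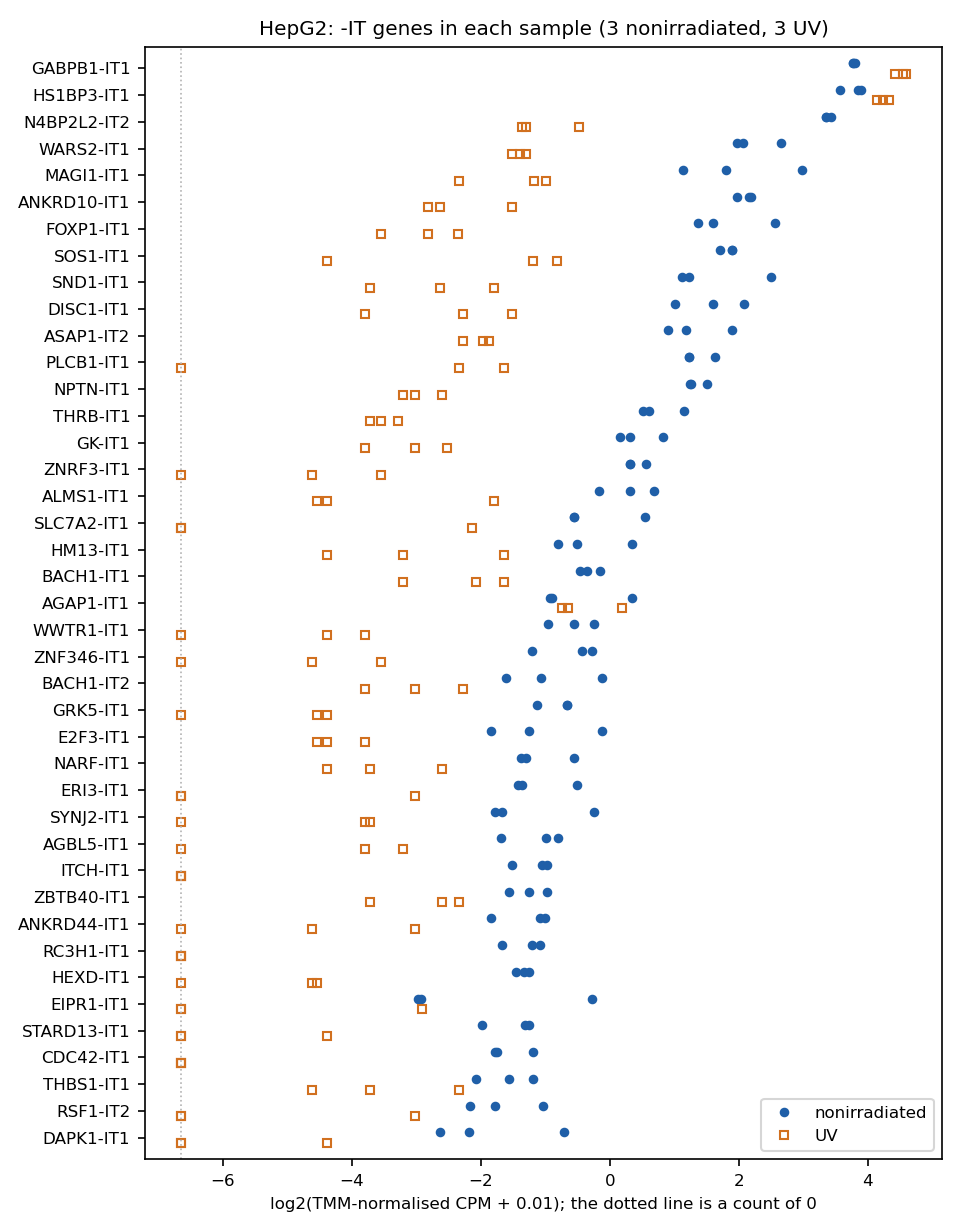
Each row is a member tested in HepG2, with its log2(TMM-normalised CPM + 0.01) in 3 nonirradiated samples (filled circles) and 3 UV samples (open squares), ordered by nonirradiated mean. UV samples lie left of all nonirradiated samples in 37 of 41 rows, right of them for GABPB1-IT1 and HS1BP3-IT1, and among them for AGAP1-IT1 and EIPR1-IT1. Of all genes tested 40.7% were called lower, and the share that separate as these rows do is not given here.

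Among the most abundant members, N4BP2L2-IT2, in an intron of N4BP2L2, had 573, 866 and 712 counts in nonirradiated HepG2 samples and 23, 10 and 12 in UV samples. This was a log2 fold change of −4.36 ± 0.19 (SE, n = 3 per group, edgeR adjusted p = 2.93e-07). Every UV sample was far below every nonirradiated one. ANKRD10-IT1, in an intron of the ankyrin repeat gene ANKRD10, went from 220, 388 and 294 counts to 11, 4 and 4, a log2 fold change of −4.33 ± 0.27 (SE, n = 3 per group, edgeR adjusted p = 1.07e-06). WARS2-IT1, the member antisense to its host, went from 354, 355 and 258 counts to 12, 9 and 12, and its log2 fold change was −3.68 ± 0.27. It fell like the members that lie on the strand of the host, although with no strand option its counts can include reads from either strand. MAGI1-IT1, in the gene of a junctional scaffold protein, had 446 counts in nonirradiated replicate 1 and 187 and 228 in the others, and 14, 5 and 15 after UV. Its log2 fold change was −3.55 ± 0.58, and it stayed between −3.91 and −2.94 with any 1 library left out.

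ITCH-IT1, RC3H1-IT1 and CDC42-IT1 had no count in any UV sample of HepG2. Their hosts encode the ubiquitin ligase ITCH, the mRNA decay factor Roquin and the small GTPase CDC42. ITCH-IT1 had 28, 29 and 31 counts without UV, RC3H1-IT1 26, 36 and 20, and CDC42-IT1 24, 24 and 19. Against a floor of 3 counts over the UV group they were at least 12.6-fold, 11.8-fold and 9.61-fold lower, and edgeR called each lower (adjusted p 4.63e-04, 5.88e-04 and 9.91e-04). ZNRF3-IT1, in the gene of a ubiquitin ligase that acts on Wnt receptors, went from 83, 105 and 81 counts to 1, 2 and 0, which left 2.59% of its level with a counting interval of 0.531 to 7.66%.

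Of the other abundant members, FOXP1-IT1 kept 3.72% of its nonirradiated level in HepG2 (log2 −4.80), SND1-IT1 5.29% (−4.30), DISC1-IT1 6.50% (−3.98), PLCB1-IT1 6.63% (−3.92), NPTN-IT1 4.94% (−4.33) and THRB-IT1 4.70% (−4.40). Their hosts have unrelated roles, from the forkhead factor FOXP1 and the thyroid hormone receptor THRB to the nuclease SND1 and the adhesion protein neuroplastin (NPTN). SOS1-IT1 kept 10.2% (−3.32), ASAP1-IT2 9.35% (−3.44), GK-IT1 8.48% (−3.56), ALMS1-IT1 10.1% (−3.31), SLC7A2-IT1 8.89% (−3.52) and HM13-IT1 19.5% (−2.40). In SLC7A2-IT1 all 7 UV counts came from UV replicate 1, in ALMS1-IT1 9 of 11 and in HM13-IT1 10 of 14. Without that library ALMS1-IT1 was at −5.04 and HM13-IT1 at −3.52, both further from 0, and SLC7A2-IT1 had no UV count.

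Members with few counts showed the same direction with wider intervals. WWTR1-IT1, ZNF346-IT1, GRK5-IT1, E2F3-IT1, ERI3-IT1, SYNJ2-IT1, AGBL5-IT1, ANKRD44-IT1 and HEXD-IT1 kept 5.20%, 5.36%, 4.08%, 9.21%, 7.34%, 10.2%, 12.1%, 11.5% and 5.81% of their level in HepG2. STARD13-IT1, DAPK1-IT1 and RSF1-IT2 kept 3.18%, 3.75% and 10.7%, with 1, 1 and 3 UV counts in all and upper counting limits of 18.3%, 21.7% and 32.8%. In 12 of the 37 members that fell, the UV samples held 3 counts or fewer in all, so their fitted fold changes depend on the prior count and are not bounds. The smallest falls were those of ZBTB40-IT1 (33.2% left, log2 −1.59), THBS1-IT1 (27.8%, −1.82), BACH1-IT1 (27.1%, −1.88), BACH1-IT2 (22.8%, −2.15) and NARF-IT1 (19.4%, −2.38). The call of THBS1-IT1 was lost without UV replicate 1 (edgeR adjusted p = 0.083) or without UV replicate 3 (adjusted p = 0.077). EIPR1-IT1 had 46, 10 and 8 counts without UV and 4, 0 and 0 with UV, and its log2 value of −2.85 ± 1.30 did not pass (edgeR adjusted p = 0.071). It passed without nonirradiated replicate 2 (adjusted p = 0.025) or 3 (0.033) and with DESeq2 (0.016), and replicate 1 alone held most of its counts.

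GABPB1-IT1 and HS1BP3-IT1 were the most abundant members in HepG2 and the only ones called higher there. GABPB1-IT1 lies in an intron of GABPB1, a subunit of the transcription factor GA-binding protein, and had 767, 1192 and 900 counts without UV and 777, 618 and 652 with UV. In TMM-normalised CPM this was 13.8 ± 0.21 against 22.9 ± 1.34 (SD, n = 3 each), and the fitted log2 value was 0.74 ± 0.08 (SE, edgeR adjusted p = 2.18e-05). HS1BP3-IT1, in an intron of HS1BP3, had 665, 1264 and 943 counts without UV and 646, 469 and 569 with UV, or 13.7 ± 1.63 against 18.8 ± 1.13 (SD, n = 3 each) and a log2 fold change of 0.46 ± 0.10 (SE, edgeR adjusted p = 2.87e-03). In both genes every normalised UV value lay above every nonirradiated one. That direction rests on the scaling. With library size alone the values were −0.57 and −0.85, both called lower, while the median of all genes moved to −1.38, so relative to that median they were 0.82 and 0.54. With at least 10 counts required in every sample, which left 4 members, HS1BP3-IT1 was at 0.19 and did not pass (edgeR adjusted p = 0.091).

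AGAP1-IT1, in the gene of an Arf GTPase-activating protein, had 71, 45 and 34 counts without UV and 19, 30 and 19 with UV. After scaling the groups overlapped, at 0.768 ± 0.426 and 0.782 ± 0.305 CPM (SD, n = 3 each), and the log2 value of 0.03 ± 0.44 did not pass (edgeR adjusted p = 0.95). With library size alone it was −1.26 and called lower, close to the −1.38 of all genes.

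In HEK293, 15 of the 20 members tested fell, 0 rose and 5 did not pass (edgeR, same rule, 20472 genes). No member was higher at an unadjusted p under 0.05 or by DESeq2 either. Of all genes tested 26.4% were called lower and 24.2% higher. With the limit on the mean of all 6 samples, 8 of 12 members fell, where 26.7% of genes were called lower. The median log2 fold change of the 20 members was −2.85, against −0.08 over all genes, and those that fell kept 0.753 to 23.4% of their level. Without replicate 1 of both groups 15 of 21 tested fell, 14 of them among the 20 and HM13-IT1, which then reached the limit. SND1-IT1 and KDM5C-IT1 then no longer passed (edgeR adjusted p 0.074 and 0.073) and ZNF346-IT1 passed (0.014).

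**Figure D2:**
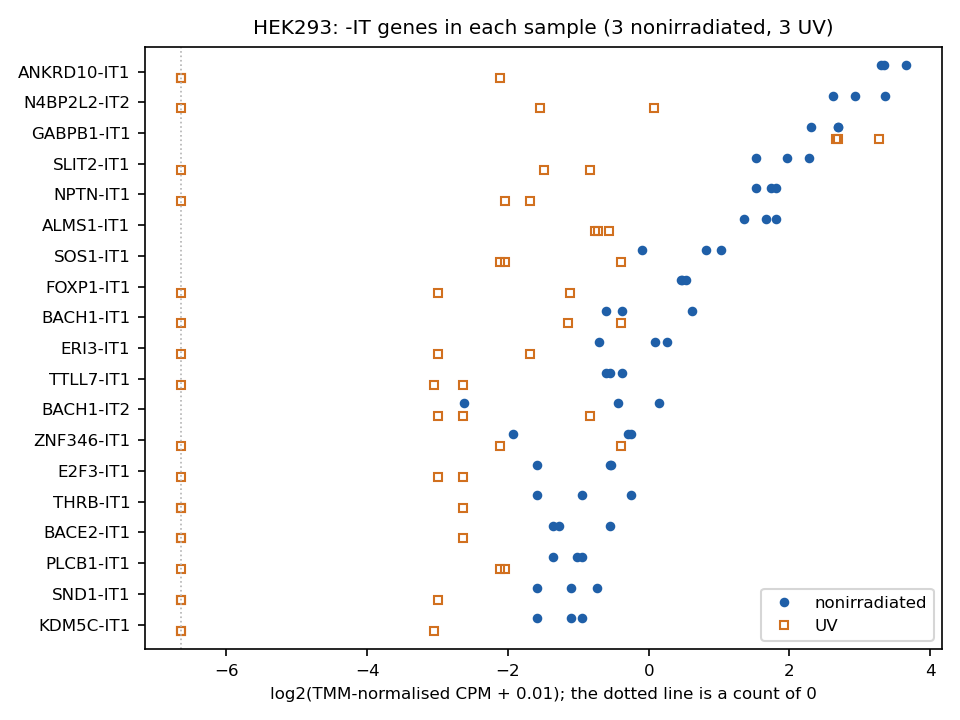
Each row is 1 of 19 members tested in HEK293, plotted as log2(TMM-normalised CPM + 0.01) in 3 nonirradiated samples (filled circles) and 3 UV samples (open squares), with the dotted line at a count of 0. UV samples lie left of all nonirradiated samples in 15 of 19 rows, and many sit on the dotted line. Of all genes tested 26.4% were called lower, and the share that separate as these rows do is not given here.

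ANKRD10-IT1 was the most abundant member in HEK293 and fell furthest, from 117, 125 and 166 counts to 0, 0 and 2. It kept 0.753% of its nonirradiated level (counting interval 0.091 to 2.74%), and edgeR called it lower (adjusted p = 3.37e-05). N4BP2L2-IT2 went from 121, 94 and 81 counts to 0, 9 and 3, a log2 fold change of −4.00 ± 0.54 (SE, n = 3 per group, edgeR adjusted p = 3.57e-04). NPTN-IT1 went from 34, 43 and 44 counts to 2, 2 and 0 (log2 −4.19 ± 0.52). In each of these 3 members at least 1 UV sample had no count, and every UV sample was below every nonirradiated one. SLIT2-IT1, in the gene of the axon guidance ligand SLIT2, went from 34, 48 and 64 counts to 0, 3 and 5 (log2 −3.53 ± 0.53), and ALMS1-IT1 from 30, 39 and 46 to 4, 5 and 6 (log2 −2.29 ± 0.31). SLIT2-IT1 had 1 count in all in HepG2, where SLIT2 itself had 25 without UV and 3 with UV.

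The smallest fall among the members called in HEK293 was that of SOS1-IT1, from 11, 25 and 23 counts to 5, 2 and 2 (log2 −2.03). FOXP1-IT1 kept 11.8% of its level, ERI3-IT1 13.2%, TTLL7-IT1 11.8%, E2F3-IT1 14.6%, THRB-IT1 7.32%, BACE2-IT1 8.54%, SND1-IT1 9.04% and KDM5C-IT1 9.60%. These are small counts, with at most 4 UV counts in all for each of the 8 genes. With a single library left out, the call was lost for SOS1-IT1 (without UV replicate 2 or 3, edgeR adjusted p 0.062 and 0.060), for THRB-IT1 and E2F3-IT1 (without nonirradiated replicate 3 or UV replicate 2 or 3, adjusted p 0.058 to 0.081), for BACE2-IT1 (without UV replicate 2 or 3, 0.072 and 0.073), for SND1-IT1 (without UV replicate 3, 0.070) and for KDM5C-IT1 (without nonirradiated replicate 3 or UV replicate 2, 0.054 and 0.070). Of the members named here, DESeq2 did not call E2F3-IT1, SND1-IT1 or KDM5C-IT1 (adjusted p 0.051 to 0.068).

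The 5 members that did not pass in HEK293 were GABPB1-IT1, PLCB1-IT1, ZNF346-IT1, BACH1-IT1 and BACH1-IT2. GABPB1-IT1 had 76, 80 and 65 counts without UV and 43, 83 and 57 with UV, and its normalised groups overlapped (log2 0.33 ± 0.23, edgeR adjusted p = 0.26). PLCB1-IT1 was at −1.41, ZNF346-IT1 at −1.10, BACH1-IT1 at −1.34 and BACH1-IT2 at −1.15 on the log2 scale (edgeR adjusted p 0.12 to 0.30). With the replicate number as a block BACH1-IT1 passed (adjusted p = 0.038). AGAP1-IT1 and HS1BP3-IT1, which did not fall in HepG2, could not be followed in HEK293, where they had 7 and 2 counts without UV and 0 with UV.

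The second question was whether the host genes behaved alike. In HepG2 26 of 42 hosts tested fell, 11 rose and 5 did not pass, with a median log2 fold change of −0.43, and in HEK293 26 of 45 fell, 8 rose and 11 did not pass, with a median of −0.70. Hosts called lower were 61.9% in HepG2, against 40.7% of all genes tested and 34.2% of protein-coding genes. In HEK293 they were 57.8%, against 26.4% and 25.8%. Those called higher were 26.2% in HepG2 and 17.8% in HEK293, against 38.1% and 24.2% of all genes tested. Hosts thus moved in both directions, though down more often than all genes tested, while members moved mostly down. Of the 11 HepG2 hosts that rose, 8 held a member that fell: ERI3, WARS2, AGBL5, SND1, GRK5, HEXD, NARF and HM13, with a median of 0.83 for these hosts and −3.69 for their members. With library size alone 2 of the 42 hosts were called higher in HepG2 and 2 of 45 in HEK293. With the block 7 more hosts passed in HEK293, namely NPTN, BACH1, DISC1 and STARD13, which were lower, and ASAP1, GRK5 and BACE2, which were higher (edgeR adjusted p 6.4e-05 to 0.032).

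ERI3, an exoribonuclease family gene, and ERI3-IT1 moved in opposite directions in both lines. ERI3 had 787, 1167 and 943 counts without UV and 1399, 1069 and 1252 with UV in HepG2, a log2 fold change of 1.57 ± 0.07, whereas ERI3-IT1 went from 39, 31 and 25 counts to 0, 3 and 0. The log2 ratio of member to host counts ((count + 0.5)/(count + 0.5)) was −4.32, −5.21 and −5.21 without UV and −11.45, −8.26 and −11.29 with UV. In HEK293 ERI3 was again higher (log2 1.26 ± 0.12) and ERI3-IT1 lower, from 14, 13 and 8 counts to 2, 1 and 0. NPTN did not pass in either line (log2 0.13 and −0.27, edgeR adjusted p 0.15 and 0.17), while NPTN-IT1 fell in both.

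**Figure D3:**
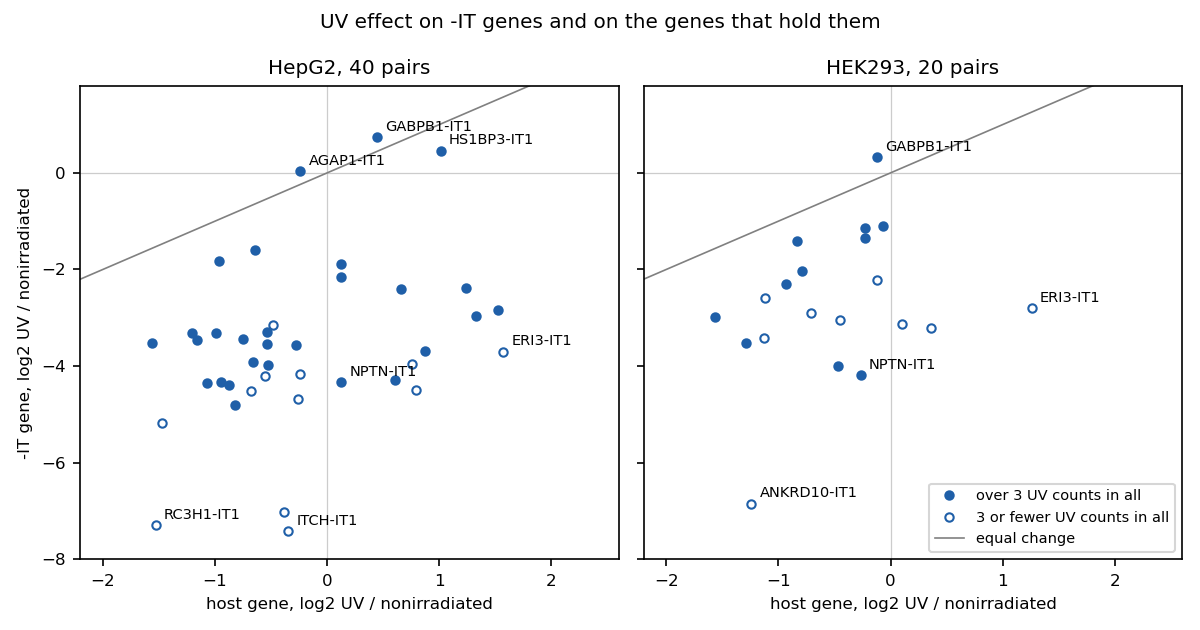
Log2 UV over nonirradiated of each member (vertical) against that of its host (horizontal) in HepG2 (40 pairs with a tested host) and HEK293 (20 pairs), with open circles for members of 3 or fewer UV counts in all, whose fitted values are not bounds. In HepG2 38 of 40 points lie below the line of equal change, in HEK293 19 of 20, and the hosts spread to both sides of 0. Most other sense intronic genes, not drawn, also fell relative to the gene around them. The upper quartile of their log2 ratio change was −1.46 in HepG2 and −0.28 in HEK293.

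In the most abundant pairs where both fell, the member fell further. N4BP2L2 was at −1.07 ± 0.08 in HepG2 and −0.47 ± 0.15 in HEK293, and ANKRD10 at −0.94 ± 0.08 and −1.24 ± 0.19, all called lower. The member to host log2 ratio of ANKRD10-IT1 changed by −3.43 ± 0.36 in HepG2 and by −5.39 ± 0.65 in HEK293, and that of N4BP2L2-IT2 by −3.33 ± 0.27 and −4.15 ± 1.06 (SE, n = 3 per group). In HEK293 both members had UV samples without a count, so the size of those changes depends on the 0.5 added to each count. In nonirradiated samples these 2 members stood, per exon base, at 50.3% and 46.0% of the level of their host in HepG2 and at 64.9% and 39.4% in HEK293. CDC42 and ITCH, with hardly any member counts left after UV, were themselves at −0.38 and −0.35 in HepG2, and RC3H1 and ZNRF3 at −1.53 and −1.47.

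Over all pairs, the ratio was lower in every UV sample than in any nonirradiated sample for 38 of 41 pairs in HepG2 and 11 of 20 in HEK293, with median changes of −3.31 and −1.59 on the log2 scale. Other sense intronic genes, set against the protein-coding gene around them, gave 82.4% in HepG2 (614 of 745) and 53.3% in HEK293 (329 of 617), with median changes of −2.86 and −1.35. The members' share in HEK293 was thus near this background. In the background pairs both genes had to reach the limit. The 38 HepG2 pairs include ANKRD44-IT1, whose host did not reach it and had UV counts of 2, 3 and 0. In the opposite direction no pair in HepG2 and 1 in HEK293, GABPB1-IT1 to GABPB1, was higher in every UV sample, against 7.79% and 12.3% of the other sense intronic genes. Each ratio was tested by exact two-sided permutation, and the smallest possible p of 0.1 gave adjusted values of 0.11 over 41 pairs and 0.17 over 20, so no single pair could pass. Without replicate 1 of both HEK293 groups, 16 of 20 pairs were lower in every UV sample, against 65.2% of the other sense intronic genes (402 of 617), and with 2 samples against 2 this is easier to meet for any gene.

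In HepG2 the 3 pairs whose ratios overlapped between groups were those of GABPB1-IT1, AGAP1-IT1 and THBS1-IT1. In HEK293 8 pairs overlapped, among them SOS1-IT1, THRB-IT1, FOXP1-IT1 and E2F3-IT1, which had fallen in level. GABPB1 rose in HepG2, by a log2 value of 0.44 ± 0.09 (edgeR adjusted p = 2.03e-03) and the ratio of GABPB1-IT1 to it was 0.11, −0.13 and −0.14 without UV and 0.32, 0.30 and 0.09 with UV, so the groups overlapped. HS1BP3 rose by 1.01 ± 0.08, more than HS1BP3-IT1, and the ratio was −0.84, −0.63 and −0.57 without UV and −1.11, −1.42 and −1.15 with UV. HS1BP3-IT1 therefore rose in level and was lower in every UV sample relative to its host. AGAP1 was at −0.24 ± 0.11 (edgeR adjusted p = 0.062), with overlapping ratios for AGAP1-IT1. THBS1-IT1, which had fallen, overlapped in its ratio to THBS1, the gene of an extracellular matrix glycoprotein, which fell by 0.97. EIPR1-IT1, whose own level did not pass the test, was lower in every UV sample relative to EIPR1, with a log2 ratio change of −4.27 ± 1.29 (SE). Its UV counts were 4, 0 and 0, so the size of this change depends on the 0.5 added to each count.

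Level relative to the host differed among members. Per exon base, nonirradiated HepG2 members stood at a median of 27.3% of their host and HEK293 members at 19.4%. In HepG2 3 members exceeded the host: HS1BP3-IT1 at 949%, DISC1-IT1 at 272% and ANKRD44-IT1, whose host ANKRD44 had 27 nonirradiated counts in all. HS1BP3-IT1 was far from its host across lines as well. Its 2872 nonirradiated counts in HepG2 stood beside 4541 for HS1BP3, and its 2 counts in HEK293 beside 517. GABPB1-IT1 was at 92.1% of GABPB1 in HepG2 and 18.6% in HEK293. Across pairs the fold changes of member and host had Pearson's r of 0.34 and Spearman's rho of 0.31 in HepG2 (40 pairs) and 0.28 and 0.33 in HEK293 (20 pairs), given as a description since all pairs share the same libraries.

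Features of the annotation were set beside the changes as a description. In HepG2 all 27 members without a poly(A) signal in the last 40 bases fell, as did 10 of 14 with one, and the 4 others were HS1BP3-IT1, GABPB1-IT1, AGAP1-IT1 and EIPR1-IT1. Median log2 fold changes were −3.96 without and −3.31 with a signal in HepG2, and −3.05 and −2.03 in HEK293. The 9 members followed by at least 12 A all fell in HepG2, with values from −4.40 to −2.40 and a median of −3.96. Of those with fewer A, 28 of 32 fell, with a median of −3.505 over the 32. A short distance to the preceding host exon was shared by the members that rose: HS1BP3-IT1 began 68 and GABPB1-IT1 123 bases into the intron, and ZBTB40-IT1, which began at base 9, had the smallest fall among those called. KDM5C-IT1, also at base 9, fell in HEK293 (log2 −3.05). These members were picked for their changes, and the part of either feature was not tested.

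The fall was next set beside other kinds of genes, all of which passed the same limit. In HepG2 703 of 949 other sense intronic genes fell (74.1%, median −2.88), of which the lncRNAs gave 259 of 345 (75.1%, median −2.65). The members stood at 90.2%. Other lncRNAs fell in 2032 of 4103 cases (49.5%, median −0.62), antisense genes with an -AS symbol in 403 of 903 (44.6%, median −0.35), genes with an -OT symbol (overlapping transcripts) in 3 of 7, and protein-coding genes in 4703 of 13735 (34.2%, median 0.17). In HEK293 the members fell in 75.0% of cases, other sense intronic lncRNAs in 54.6% (165 of 302, median −1.89), all other sense intronic genes in 46.2% (median −1.46), other lncRNAs in 25.6% (median −0.28), -AS genes in 19.3% (182 of 944), -OT genes in 4 of 10 and protein-coding genes in 25.8%. The difference between members and these lists was not tested.

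**Figure D4:**
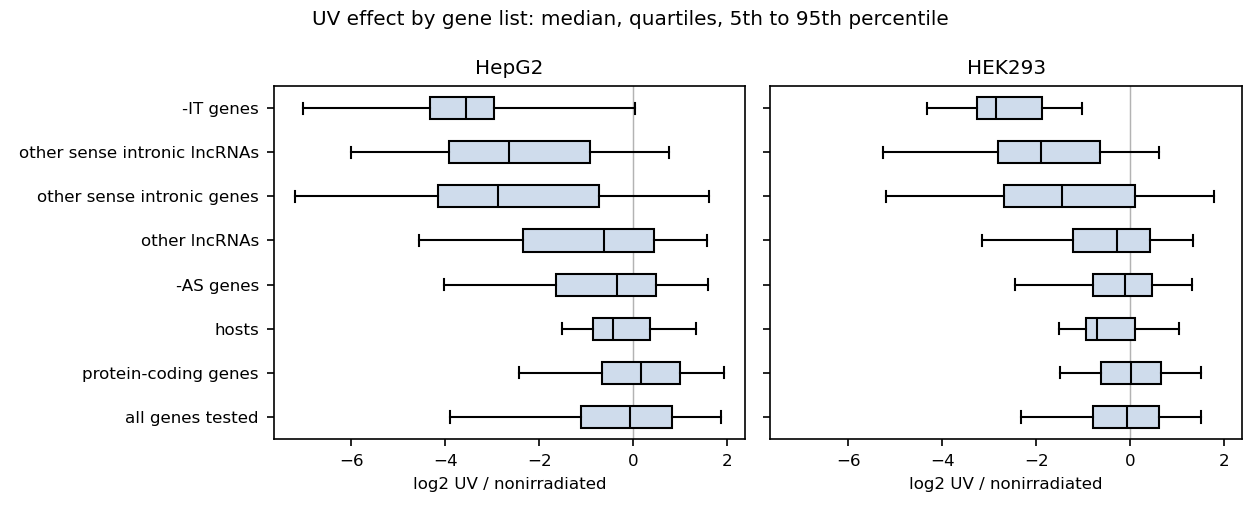
Boxes give the median and quartiles of log2 UV over nonirradiated for each list of genes, and whiskers the 5th to 95th percentile, in HepG2 (left) and HEK293 (right). The -IT genes have the lowest medians, −3.56 and −2.85, and the hosts are at −0.43 and −0.70. Next after the -IT genes come other sense intronic genes in HepG2 (−2.88) and other sense intronic lncRNAs in HEK293 (−1.89).

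The last question was whether the 15 members tested in both lines responded alike. The point estimate was higher in HEK293 for 13 of 15, the others being ANKRD10-IT1 and GABPB1-IT1. None passed the test of the difference itself (edgeR interaction term over 12 samples, adjusted p 0.094 to 0.94), 2 had an unadjusted p under 0.05, and DESeq2 called 0, whereas 7.95% of 16759 genes were called. The effect on ANKRD10-IT1, HEK293 minus HepG2, was −2.52 ± 0.87 on the log2 scale (SE, adjusted p = 0.094), and without UV replicate 3 of HEK293, which held its only 2 UV counts there, the difference of −6.47 passed (adjusted p = 0.046). ZNF346-IT1 was 3.09 ± 1.33 and PLCB1-IT1 2.57 ± 1.29 less negative in HEK293 (adjusted p 0.18 and 0.25). N4BP2L2-IT2 and NPTN-IT1 differed by 0.46 ± 0.69 and 0.17 ± 0.81. HEK293 libraries were shallower than those of HepG2, and with these standard errors differences of several-fold were not detectable for most members. By the study's methods the lines were also sequenced on different sequencer models, so line and sequencer cannot be told apart in this comparison.

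**Figure D5:**
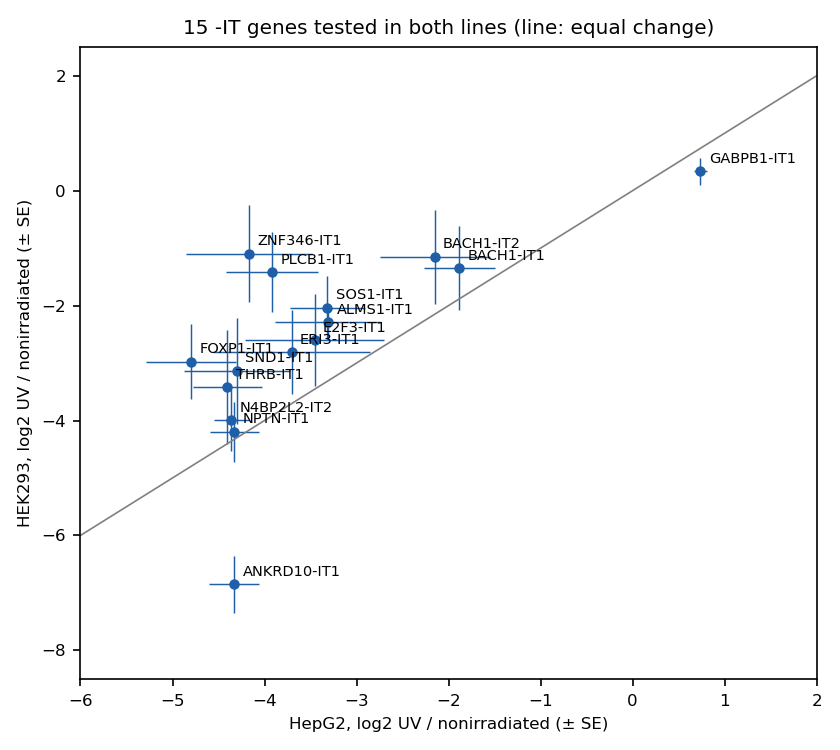
Log2 UV over nonirradiated in HEK293 (vertical) against HepG2 (horizontal) for the 15 members tested in both lines, with bars of 1 SE and the line of equal change. Most points lie above the line, ANKRD10-IT1 lies below it at −6.85 against −4.33, and GABPB1-IT1 stands alone above 0 in both lines.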

How the data were processed

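Members and gene lists were chosen with earlier results of these data known. The authors depleted ribosomal RNA (Ribo-Zero), prepared TruSeq libraries (with the stranded mRNA kit per the labels, with RNA Sample Preparation v2, which keeps no strand, per the methods), mapped reads to hg38 with TopHat2 2.1.1 and deposited counts per gene from featureCounts (1.5.3 for HepG2, 1.6.1 for HEK293; exons of GENCODE 28; reads over several genes counted for each; no strand option). Symbols and classes came from GENCODE 44, matched by Ensembl ID for 98.9% of genes. Hosts were matched by the symbol before -IT. A sense intronic gene lies inside an intron of a gene on its strand.

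UV and nonirradiated samples of each line were compared in edgeR 4.0.16 (R 4.3.3) with TMM factors, the quasi-likelihood test and Benjamini-Hochberg adjustment, over genes with a mean of at least 0.5 CPM in nonirradiated samples, as the authors filtered. The line difference was an interaction term. Ratios used a pseudocount of 0.5 and exact permutation. A group at 0 was set to a floor of 3 counts. Intervals (95%) cover counting error only. DESeq2 1.42.0, other scalings, filters and pseudocounts, a replicate block and leaving out each library were alternatives. The fits were tested on simulated counts in which few genes changed, equally up and down. That did not test the scaling of these data, where many genes changed. Deviations of same-numbered samples correlated at 0.37 to 0.65 in HEK293. Replicates 2 and 3 also correlated across their numbers (0.28 and 0.26), so the pattern sets replicate 1 apart from them. Whether each number pairs its samples is not settled by these values, and no label states a shared batch. Per-sample values are given for the 6 most abundant members of a line and, among those called, the 4 lowest and 2 highest log2 fold changes; every member has at least 1 value, except 1 that is not reported here. Mouse samples were not used here.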

Additional observations from a re-analysis of the deposited data

How the results depend on the processing

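Requiring 10 counts in every sample left 4 members in HepG2 and 1 in HEK293, of which 1 and 0 were called lower and 1 higher in HepG2, and 2 and 0 pairs were lower in ratio. That filter removes members that fell to near 0, as does the limit on the mean of all samples, under which 20 of 23 and 8 of 12 were called lower. With library size alone 0 members were called higher in HepG2, against 2, and 2 hosts in each line, against 11 and 8, while the median of all genes moved to −1.38 in HepG2 and −0.84 in HEK293. Of the genes named here, values that turned under it in HepG2 were those of GABPB1-IT1 (−0.57), HS1BP3-IT1 (−0.85), AGAP1-IT1 (−1.26), WARS2 (−0.44), HS1BP3 (−0.29), SND1 (−0.70), GRK5 (−0.51), GABPB1 (−0.86), NPTN (−1.18), HEXD (−0.55), NARF (−0.063), HM13 (−0.64) and BACH1 (−1.18), and in HEK293 those of GABPB1-IT1 (−0.42), WARS2 (−0.34), AGBL5 (−0.047), SND1 (−0.65), ASAP1 (−0.43), GRK5 (−0.38), HEXD (−0.31) and BACE2 (−0.40). BACH1 was at −0.14 in HepG2 with 10 counts in every sample.

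Leaving out a single library gave 32 to 38 members called lower and 2 higher in HepG2 each time, 10 to 16 lower in HEK293, 0 to 1 called in the line difference, and 38 to 39 and 11 to 15 pairs lower in ratio, with 0 to 2 pairs higher in HepG2 (2 without nonirradiated replicate 1). The replicate block gave 38 members lower in HepG2 and 16 in HEK293, and 38 and 14 pairs lower by same-numbered samples, with 1 higher in HepG2. In HepG2 same-numbered samples did not deviate together (correlations −0.024 to 0.0070), so the numbers there are names only. Pseudocounts of 0.1 and 1, DESeq2, its size factors, no filter, and only members with no shared exon base kept every count of member calls and of lower ratios within 1.5 times. Depth limits HEK293 most, where the members tested held a median of 30.5 nonirradiated counts in all, against 150 in HepG2.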
